A study of Homo sapiens with 9 samples.

Results

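The replication-dependent histone genes encode the core histones H2A, H2B, H3 and H4 and the linker histones H1 that package newly made DNA. They were chosen by gene symbol alone, as every table entry named H2AC, H2BC, H3C or H4C with a number, or H1-1 to H1-6, and they made up 66 of the 59653 genes in the count table. RNA was sequenced from K-562 cells, a human erythroleukaemia line, that all carried a B2M tdTomato genotype (a red fluorescent reporter at B2M, the gene of the invariant chain of MHC class I). There were 3 libraries of each of 3 groups: mock, the tripartite ETR together with a gRNA of full length, and that ETR together with a gRNA truncated to 16 nt. The ETR is a fusion built on dCas9, which binds DNA at the gRNA's target without cutting it. The target was the B2M promoter, and the mRNA and gRNA entered the cells by nucleofection. The labels do not say what the mock cells received, or whether the replicates came from separate cultures, and the p-values below therefore reflect library-to-library spread that may be only technical.

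Histone mRNA is made mainly in S phase, when the cell copies its DNA and needs new nucleosomes. Unlike other mRNAs, these transcripts mainly end in a short stem-loop bound by the protein SLBP instead of a poly(A) tail. The genes are short, mostly without introns, and lie in clusters with many copies per class, where the factor NPAT gathers at histone locus bodies. A library made from RNA with poly(A) tails captures them poorly, and the labels do not say whether poly(A) RNA was selected or ribosomal RNA depleted.

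The promoters of the leading gene of each class are shown because the classes differ in short sequences near their start. Each is the 200 bases before the RefSeq start, read on the gene's own strand (RefSeq, GRCh38.p14), with capitals marking the motifs found. The motifs searched, on both strands, were TATAAA (the TATA box), CCAAT, ATTTGCAT (the octamer bound by the POU factor OCT1) and AAACACA (the H1 box). Neighbouring matches can overlap, as the TATA boxes of H2AC11 do.
H1-2, chr6:26056471-26056670, minus strand: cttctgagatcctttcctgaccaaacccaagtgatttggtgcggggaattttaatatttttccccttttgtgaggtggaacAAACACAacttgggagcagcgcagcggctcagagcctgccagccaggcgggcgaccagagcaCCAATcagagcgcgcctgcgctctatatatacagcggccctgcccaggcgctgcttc
H2AC11, chr6:27132843-27133042, plus strand: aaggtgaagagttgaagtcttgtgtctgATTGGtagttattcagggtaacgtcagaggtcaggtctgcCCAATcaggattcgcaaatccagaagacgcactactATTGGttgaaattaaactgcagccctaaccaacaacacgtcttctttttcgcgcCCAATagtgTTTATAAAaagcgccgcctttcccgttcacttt
H2BC12, chr6:27146859-27147058, minus strand: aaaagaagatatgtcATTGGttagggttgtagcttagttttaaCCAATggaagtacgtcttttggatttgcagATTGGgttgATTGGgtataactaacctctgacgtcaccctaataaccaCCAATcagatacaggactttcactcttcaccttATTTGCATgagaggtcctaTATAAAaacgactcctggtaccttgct
H3C2, chr6:26032100-26032299, minus strand: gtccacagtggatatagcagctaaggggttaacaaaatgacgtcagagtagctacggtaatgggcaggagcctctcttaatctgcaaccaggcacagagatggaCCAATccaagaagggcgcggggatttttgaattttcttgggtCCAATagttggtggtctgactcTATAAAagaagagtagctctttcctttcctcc
H4C2, chr6:26027284-26027483, minus strand: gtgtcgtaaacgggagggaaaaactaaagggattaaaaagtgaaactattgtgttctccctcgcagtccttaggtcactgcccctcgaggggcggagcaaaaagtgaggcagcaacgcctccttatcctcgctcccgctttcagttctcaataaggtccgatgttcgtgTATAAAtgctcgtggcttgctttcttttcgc

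A RefSeq promoter window, from 250 bases before to 50 after the start, was matched to 61 of the 66 genes. The H1 box was present in all 6 H1 windows, in 2 of 11 H3 windows and 1 of 15 H2A windows, and in 0 of 17 H2B and 0 of 12 H4 windows, against 5.64% of all 35116 promoters. The octamer was present in 14 of 17 H2B windows and 11 of 15 H2A windows, in 1 of 11 H3 windows and in none of the H1 or H4 windows, against 1.77% of all promoters. CCAAT was present in every H1, H2A, H2B and H3 window but in 3 of 12 H4 windows, against 34.6% of all. TATAAA was present in 41 of the 61, against 11.5%. A match is a description of these letters, not of a site in use.

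The H4 genes include copies that differ and copies with the same coding sequence. The first 90 coding bases of 6 of them are given below (GENCODE 29, GRCh38), with capitals where a gene differs from the commonest base at that place among the H4 genes.
H4C2, chr6:26027163-26027252, minus strand: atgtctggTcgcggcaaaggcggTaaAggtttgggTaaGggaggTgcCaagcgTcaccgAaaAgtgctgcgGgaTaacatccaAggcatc
H4C8, chr6:26285410-26285499, minus strand: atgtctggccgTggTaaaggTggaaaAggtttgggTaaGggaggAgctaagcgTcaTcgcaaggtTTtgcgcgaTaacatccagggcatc
H4C11, chr6:27824125-27824214, plus strand: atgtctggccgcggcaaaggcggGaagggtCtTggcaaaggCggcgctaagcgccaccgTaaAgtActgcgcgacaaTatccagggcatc
H4C12, chr6:27831438-27831527, minus strand: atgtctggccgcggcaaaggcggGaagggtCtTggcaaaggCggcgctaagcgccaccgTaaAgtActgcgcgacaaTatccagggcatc
H4C14, chr1:149832685-149832774, plus strand: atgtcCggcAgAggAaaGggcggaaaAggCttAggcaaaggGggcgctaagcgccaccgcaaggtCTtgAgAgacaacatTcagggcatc
H4C15, chr1:149861042-149861131, minus strand: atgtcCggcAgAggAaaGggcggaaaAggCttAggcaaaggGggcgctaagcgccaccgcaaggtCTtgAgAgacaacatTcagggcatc
H4C2 and H4C8 can be told apart along their length, whereas H4C11 and H4C12 have identical coding sequences, as do H4C14 and H4C15. Of the 78 H4 pairs compared, these 2 were the identical ones. Only pairs of genes with equal coding length were compared, base by base. There were 78 such pairs for H4, 56 for H2A, 78 for H3 and 120 for H2B. The median identity of coding sequence over these pairs was 83.8% for H4, 84.9% for H2A, 85.3% for H3 and 90.2% for H2B.

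Genes with almost no sequence of their own received few counts, while genes that share part of their sequence ranged widely. For each gene, the percentage of 100-base stretches of its GENCODE transcript that occur in no transcript of a gene elsewhere was computed. Transcripts that overlap the gene on the chromosome were left out. In 7 genes it was 5% or less: H4C12, H4C14, H4C15, H3C14, H3C15, H2AC18 and H2AC19. Of these 7, only H4C12 averaged more than 1 CPM (counts per 1e+06 counts of the library, with TMM scaling), at 8.25 CPM. H4C12 shares its stretches with H4C11, which averaged 8.51 CPM, and reads from this pair cannot be assigned with certainty. How the authors' counting treated reads that map to several places is not given in the sources used here, so the low values of these 7 genes are uncertain. H2AC13 at 42.3%, H3C13 at 48.7%, H2BC12 at 71.6% and H2AC20 at 82.8% were counted at 109, 27.8, 345 and 316 CPM, and part of their sequence was likewise shared. H2AC14, which shares most with H2AC13, had 19.1% of such stretches to itself and averaged 0.0158 CPM. With H4C11, at 22.3%, these 6 genes between 5% and 90% had a median of 68.4 CPM, beside 72.6 CPM for the 53 genes at 90% or more.

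Other genes had distinct sequence and were still at or near 0. H2AC1, H2BC1, H3C11, H4C6 and H4C13 had 0 counts in all 9 libraries, and every 100-base stretch of their transcripts was their own. A count of 0 allows up to 0.0902 to 0.126 CPM (3 counts), depending on the library and for counting error only. H2AC1 and H2BC1 are the testis histone genes TH2A and TH2B, and H1-6, the testis linker histone, averaged 0.835 CPM. Of the 53 genes with at least 90% of such stretches of their own, 13 never exceeded 12 counts in a library, those 5 included. H3C4 is also among the 13, but it shares 96.6% of its exonic bases with the overlapping gene AL031777.2. The percentage does not take that overlap into account, so the sequence of H3C4 is not distinct in this sense.

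Total counts ranged from 23763529 to 33260228 per library. B2M, whose promoter was targeted, fell in both gRNA groups by edgeR's quasi-likelihood test, with log2 fold changes of -3.84 (adjusted p = 3.50e-11) and -2.85 (adjusted p = 1.08e-09) for the full-length and 16-nt gRNA. The 9 K-562 markers used (fetal and embryonic globins, GATA1 and others) were all measured and summed to 1528 to 2050.2 CPM. Of 10 markers of other blood cells, 3 passed the filter on low counts, the summed level was 2.62 to 4.89 CPM, and MS4A1 was at 0.

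The 66 genes took 0.712% to 0.892% of all counts per library. The H1 genes held 27.3% of the histone counts, H2B 24.3%, H2A 20.6%, H4 18.1% and H3 9.66%. The counts were concentrated: H1-2 alone held 15.0%, the top 10 genes 59.0% and the top 20 genes 83.4%. In all, 26 genes averaged over 100 CPM, 13 lay between 10 and 100 CPM, 5 between 1 and 10 CPM, and 22 below 1 CPM. Of the 66, 46 passed the filter on low counts, and the other 20 never exceeded 12 counts in a library.

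By position, the table's coordinates (GRCh38) put 34 of the genes on chr6:25726063-26285638, and these carried 63.9% of the histone counts. A group of 5 on chr6:27125897-27147562 carried 17.7%, more than the 16 genes on chr6:27807444-27893891 with 10.7%. The 11 genes on chr1:149782689-149887965 carried 7.65%. All 5 genes of the second group passed the filter, against 24 of 34, 12 of 16 and 5 of 11 in the others.

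H1-2, a linker histone gene, had the highest level, at 1256, 1385 and 1054 CPM in mock, 1220, 1090 and 1217 CPM with the full-length gRNA and 1431, 1096 and 1166 CPM with the 16-nt gRNA. H1-4 followed, at 798, 901 and 521 CPM in mock, 729, 659 and 762 CPM with the full-length gRNA and 920.5, 595 and 692 CPM with the 16-nt gRNA. The lowest H1-2 library was above the highest H1-4 library, and together they held 54.9% and 33.0% of the H1 counts. Mock replicate 3 was the lowest of the 9 libraries for both, and the 16-nt replicate 1 the highest, so the groups overlapped. H1-3 averaged 195 ± 31.4 CPM (SD over 9 libraries), H1-5 72.6 ± 12.3 CPM, and H1-1 0.129 CPM.

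Among the H2A genes, H2AC11 had 787, 673 and 477 CPM in mock, 740, 573 and 587 CPM with the full-length gRNA, and 637, 497 and 570 CPM with the 16-nt gRNA. H2AC20 had 352, 347 and 265 CPM in mock, 392, 277 and 302 CPM with the full-length gRNA, and 337, 278 and 297 CPM with the 16-nt gRNA. Both were lowest in mock replicate 3. H2AC11 leads by counts, but its annotated length is 2250 bases against 494 for H2AC20. Per kilobase of annotated length the order turned, with 640 CPM per kb for H2AC20 and 274 CPM per kb for H2AC11. The 2 ranges, 536 to 793 and 212 to 350 CPM per kb, did not meet. Counts per gene do not show how much of the 2250 bases the reads cover, and this order depends on it.

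Among the H2B genes, H2BC12 had 375, 388 and 252 CPM in mock, 353, 380 and 342 CPM with the full-length gRNA, and 384, 297 and 336 CPM with the 16-nt gRNA. H2BC11 had 292, 256 and 233 CPM in mock, 308, 265 and 245 CPM with the full-length gRNA, and 238, 237 and 252 CPM with the 16-nt gRNA. The counts were spread more evenly here, since H2BC12 held 17.6% and H2BC11 13.2% of the class. H2BC12 was again lowest in mock replicate 3, as was H2BC11.

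H3 counts came mostly from H3C2, which held 62.3% of the class. It had 529, 606 and 343 CPM in mock, 491, 484 and 488 CPM with the full-length gRNA, and 587, 391 and 463 CPM with the 16-nt gRNA. H3C10 had 168, 159 and 88.9 CPM in mock, 156, 137 and 146 CPM with the full-length gRNA, and 154, 110 and 129 CPM with the 16-nt gRNA. For both genes the full-length libraries lay closer together than the mock or the 16-nt libraries, and the groups overlapped.

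H4 counts were shared by 5 genes of similar level, H4C2, H4C8, H4C5, H4C4 and H4C3, which held 19.4%, 18.4%, 17.4%, 16.7% and 15.2% of the class. H4C2 had 262, 380 and 280 CPM in mock, 248.5, 206 and 289 CPM with the full-length gRNA, and 360, 245 and 286 CPM with the 16-nt gRNA. H4C8 had 239, 298 and 300.0 CPM in mock, 252, 206 and 287 CPM with the full-length gRNA, and 310, 255 and 271 CPM with the 16-nt gRNA. H4C5 had 219, 306 and 289 CPM in mock, 216, 186 and 254 CPM with the full-length gRNA, and 339, 225 and 261 CPM with the 16-nt gRNA. All 3 were lowest in full-length replicate 2, and mock replicate 3 was not low for any of them.

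Per kilobase of annotated length, H1-2 led at 1659 CPM per kb, followed by H3C2 at 953, H1-4 at 928, H2BC12 at 698, H4C2 at 648, H2AC20 at 640, H4C4 at 608 and H4C3 at 550. Only the first step was clear: H1-2 at its lowest, 1442 CPM per kb, exceeded every library of H3C2, whose highest was 1186. Each later pair of neighbours in this order overlapped in range. The long gene models of H4C8 (2163 bases) and H4C5 (1487 bases) placed them lower, at 124 and 171 CPM per kb.

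**Figure D1:**
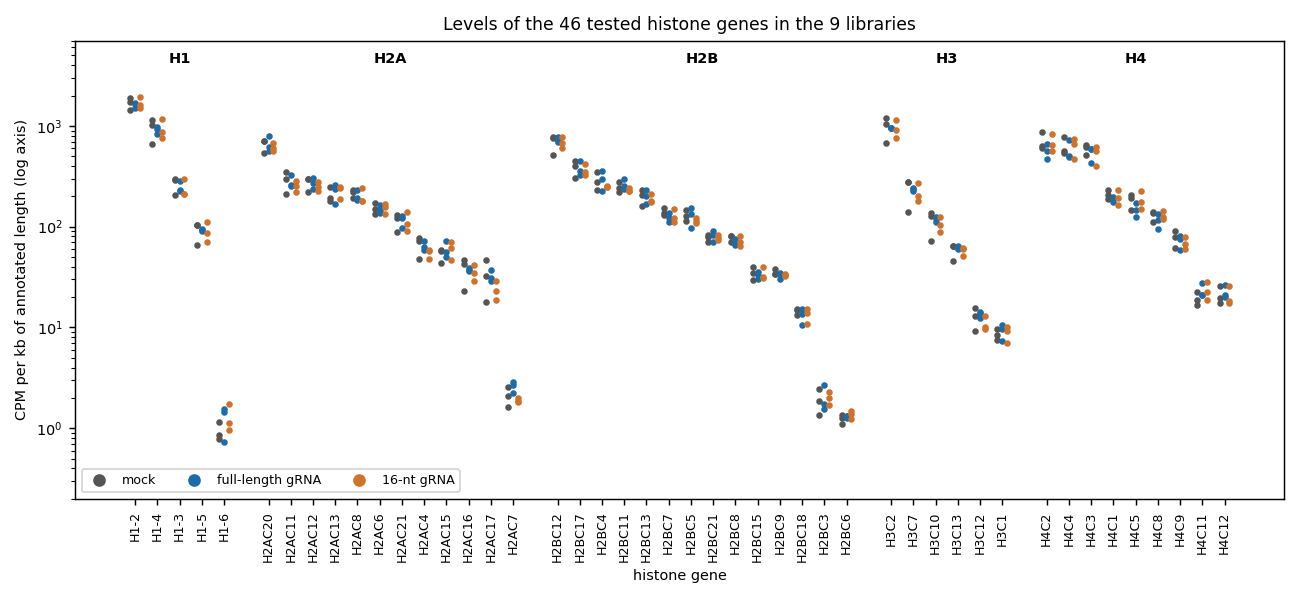
CPM per kb of annotated length (log axis) of the 46 histone genes that passed the filter, ordered by mean within each class; each point is 1 library, coloured and offset by group. In every class the 3 groups cover overlapping ranges for the leading gene, and H1-2 stands highest at 1659 CPM per kb on average.

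Some genes share exons with others, and strand use in the authors' counting is not given in the sources used here. H2AC15 lies wholly within exons of H2BC15 on the opposite strand. H3C4 and H2AC7 share 96.6% and 85.3% of their exonic bases with AL031777.2, and H2AC17 and H3C12 share 71.0% and 40.3% of theirs with each other. Values of these genes are uncertain.

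No histone gene was higher or lower in either gRNA group than in mock by edgeR's test. With the full-length gRNA, 0 of the 46 tested members were called at an adjusted p under 0.05, against 0.00657% of all 15213 tested genes (B2M alone). At an unadjusted edgeR p under 0.05 the count was again 0 of 46, against 2.86% of all genes. DESeq2 called 0, against 0.00657% of all genes, and put 1 of 46 at an unadjusted p under 0.05, against 2.03%. The groups did not separate for any of the 46, against 6.90% of all genes (3.39% higher and 3.52% lower). The median log2 fold change of the 46 was -0.00015, with 23 higher and 23 lower, beside 0.00021 over all genes, and it moved between -0.15 without mock replicate 3 and 0.079 without mock replicate 1. Its sign is therefore not fixed by these libraries.

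By class, the median log2 fold changes with the full-length gRNA were -0.13 for H4, with 7 of 9 genes lower, and 0.087 for H3, with 5 of 6 higher. The lowest p-values belonged to H4C5 (log2 fold change -0.31 ± 0.15 SE, unadjusted p = 0.0637, adjusted p = 0.992 by edgeR) and H4C2 (-0.31 ± 0.16, unadjusted p = 0.0689 by edgeR). H2BC7 and H2BC8 were at -0.18 and -0.14, H1-3 at -0.10, H2AC15 at 0.16, H3C13 at 0.097 and H3C12 at 0.10. H1-6 and H2AC7, both near the count limit, were at 0.40 ± 0.36 and 0.31 ± 0.26. The 95% confidence interval lay within a 2-fold change for 45 of the 46 genes and within 1.5-fold for 40.

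With the 16-nt gRNA, 0 of 46 were called, against 0.00657% of all genes, and 0 of 46 passed an unadjusted edgeR p of 0.05, against 2.48%. DESeq2 called 0, against 0.00657% of all genes, with 0 of 46 at an unadjusted p under 0.05, against 1.66%. The median log2 fold change was -0.077, with 35 of 46 lower, beside 0.0019 over all genes. It became 0.021 without mock replicate 2 and 0.022 without 16-nt replicate 2, and -0.18 without mock replicate 3. H2BC9 was the only member whose groups separated, lower with the 16-nt gRNA, against 9.21% of all genes (4.41% higher and 4.80% lower). It had 69.5, 77.7 and 69.4 CPM in mock and 69.4, 68.6 and 67.2 CPM with the 16-nt gRNA, so the gap between the groups was narrow.

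H2AC17 had the lowest p-value in that comparison (log2 fold change -0.46 ± 0.25 SE, unadjusted p = 0.0859, adjusted p = 0.978 by edgeR). Its levels were 22.7, 15.7 and 8.62 CPM in mock and 14.0, 9.02 and 11.2 CPM with the 16-nt gRNA, so the lowest library of all was in mock. Its log2 fold change was -0.10 without mock replicate 1 and -0.75 without mock replicate 3. H2AC4 was at -0.27 ± 0.15, H2BC4 at -0.20, H2BC5 at -0.19, H3C12 at -0.21, H3C10 at -0.081, H4C9 at -0.17, H1-3 at -0.14, H4C11 at 0.25 and H1-6 at 0.43. The interval lay within 2-fold for 45 of 46 genes and within 1.5-fold for 41.

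Between the gRNA groups, 0 of 46 were called, against 0.00657% of all genes (B2M, log2 fold change 0.99, adjusted p = 0.00580 by edgeR), and 0 of 46 passed an unadjusted edgeR p of 0.05, against 0.927%. DESeq2 called 0, against 0.00657% of all genes, and put 1 of 46 at an unadjusted p under 0.05, against 0.519%. The median was -0.037, with 29 of 46 lower with the 16-nt gRNA, beside 0.0035 over all genes. It became 0.017 without full-length replicate 1 and 0.020 without 16-nt replicate 2. H4C5 was at 0.33 ± 0.15 (unadjusted p = 0.0501 by edgeR), H2AC17 at -0.47, H3C12 at -0.31, H2BC11 at -0.17 and H1-2 at 0.066. The groups separated for 3 of 46, H2AC4, H2AC7 and H2AC17, each lower with the 16-nt gRNA, against 5.58% of all genes (2.80% higher and 2.78% lower). H2AC7 was near the count limit, at 0.837 to 1.47 CPM over all libraries. The intervals lay within 2-fold for 44 of 46 genes and within 1.5-fold for 39. The comparisons share libraries and are not independent.

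**Figure D2:**
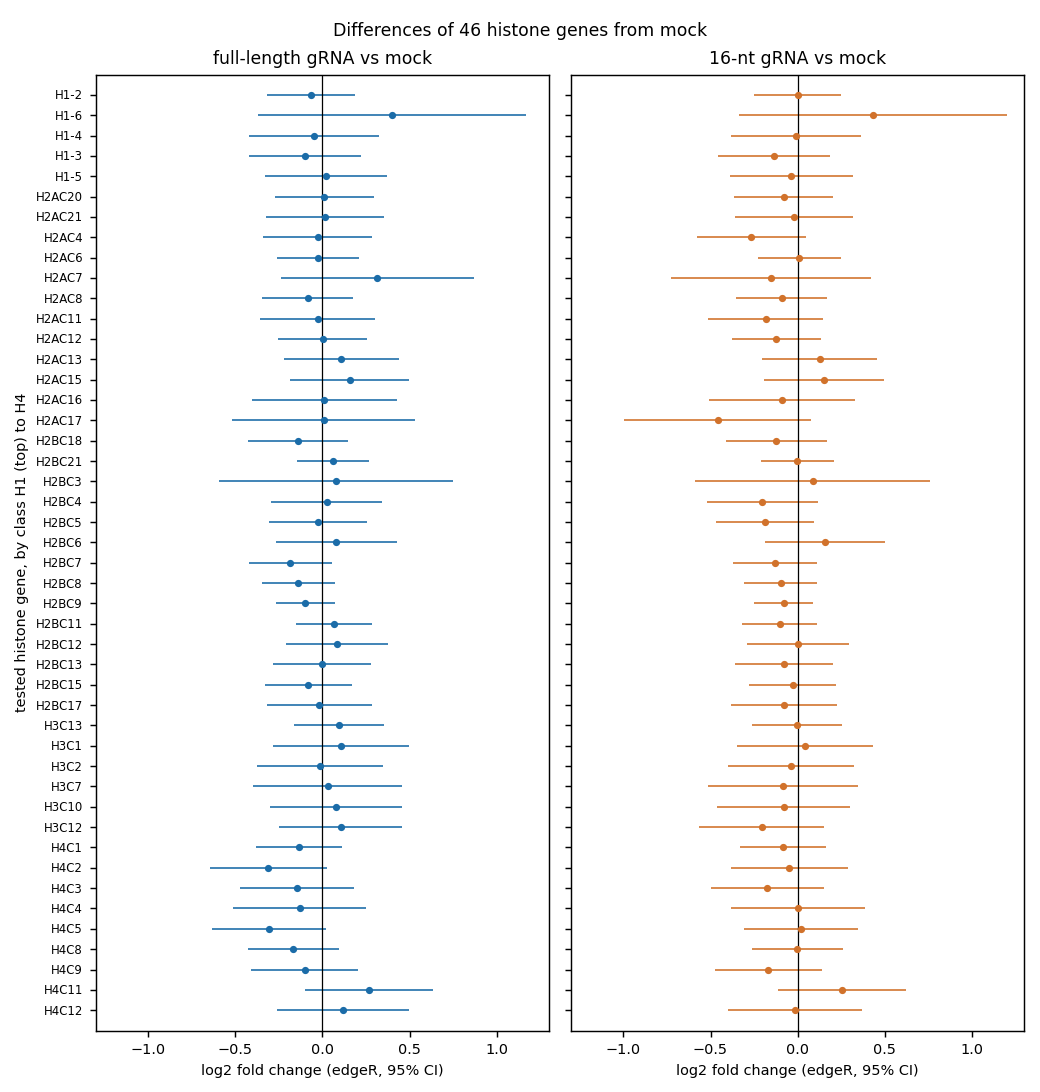
Log2 fold change of the 46 tested histone genes against mock, with 95% confidence intervals from edgeR, for the full-length gRNA (left) and the 16-nt gRNA (right); genes run by class from H1 at the top to H4. Every interval crosses 0, and the widest are those of the low-count genes H1-6 and H2BC3.

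The share of counts taken by all 66 genes showed the same overlap. It was 0.860%, 0.892% and 0.712% in mock (mean 0.821% ± 0.0963, SD, n = 3), 0.840%, 0.770% and 0.8003% in the full-length libraries (0.804% ± 0.0353), and 0.883%, 0.728% and 0.773% in the 16-nt libraries (0.795% ± 0.0795). The group means differed by less than the SD within mock. The largest distance was inside the mock group.

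By the ratio of the highest to the lowest summed CPM, H3 varied most between libraries and H2B least. The place of H3 depends on the measure and on mock replicate 3. The median SD of log2 CPM per gene, pooled within groups, was 0.30 for H1, 0.28 for H3 and 0.20 for H2B. Without mock replicate 3 it was 0.28 for H4, 0.19 for H3 and 0.16 for H2B. H3 summed to 883, 947 and 534 CPM in mock, 814, 784 and 791 CPM with the full-length gRNA, and 917, 628 and 735 CPM with the 16-nt gRNA, a range of 1.77-fold. H4 summed to 1404, 1768 and 1473 CPM in mock, 1355, 1133 and 1561 CPM with the full-length gRNA, and 1773, 1234 and 1495 CPM with the 16-nt gRNA. Mock replicate 3 was thus the lowest library for H3 and in the middle of the order for H4. The highest library exceeded the lowest by 1.495-fold for H1, 1.40-fold for H2A and 1.296-fold for H2B, and by 1.56-fold for H4.

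**Figure D3:**
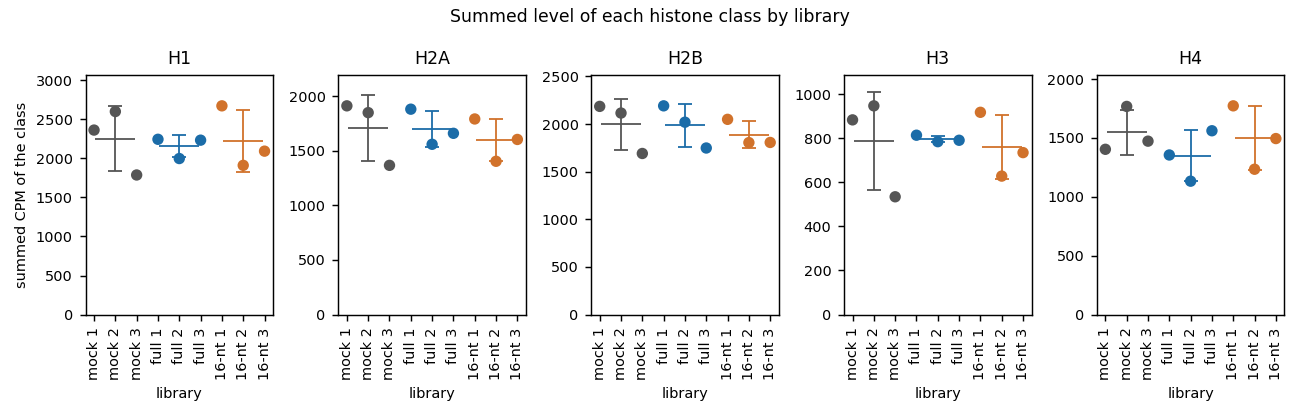
Summed CPM of each histone class (vertical axes from 0) in the 9 libraries; bars give the mean ± SD of each group of 3. Mock replicate 3 lies lowest for H1, H2A, H2B and H3 but not for H4, whose lowest library is full-length replicate 2 at 1133 CPM.

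The members moved together between libraries more than by group. The deviation of log2 CPM from the mean of the 9 libraries, as the median over the 46 members, was 0.15, 0.16 and -0.24 in mock, 0.076, -0.012 and 0.020 in the full-length libraries, and 0.16, -0.19 and -0.059 in the 16-nt libraries. Over all genes tested the same median stayed between 0.0025 and 0.0094, but TMM scaling on these genes holds it near 0. In mock replicate 3 it was -0.34 for the 9 K-562 markers and -0.017 for the 28 S phase genes listed below. A drop there was thus not particular to the histone genes. In mock replicate 3, 42 of 46 members were below their mean and 26 had their lowest value of the 9 libraries. Over all 15213 tested genes, 7451 were below their mean there, 2760 had their lowest value and 2376 their highest, so this library was often at an end of the range in both directions. In 16-nt replicate 2, 41 of 46 members and 7431 of all genes were below their mean.

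The classes did not share this pattern equally. In mock replicate 3 the median deviation was -0.44 for H3, -0.34 for H1, -0.34 for H2A and -0.18 for H2B, but -0.081 for H4, and no H4 gene had its lowest value there. H4 was lowest in full-length replicate 2 (-0.29) and in 16-nt replicate 2 (-0.26), where all 9 tested H4 genes were below their mean. The log2 ratio of summed H4 over summed H3 was 0.67, 0.90 and 1.46 in mock, 0.74, 0.53 and 0.98 in the full-length libraries, and 0.95, 0.97 and 1.03 in the 16-nt libraries. H2B stood apart in full-length replicate 3, where 13 of 14 genes were below their mean.

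As a description over the 9 libraries, which share depth and scaling, the median correlation of log2 CPM between pairs of genes was 0.858 within H1, 0.662 within H3, 0.655 within H2A, 0.582 within H2B and 0.504 within H4. Across classes it was 0.718 for H1 with H3 and 0.671 for H2A with H3, but 0.226 for H3 with H4 and 0.0494 for H2B with H4. Over all 1035 pairs it was 0.448.

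**Figure D4:**
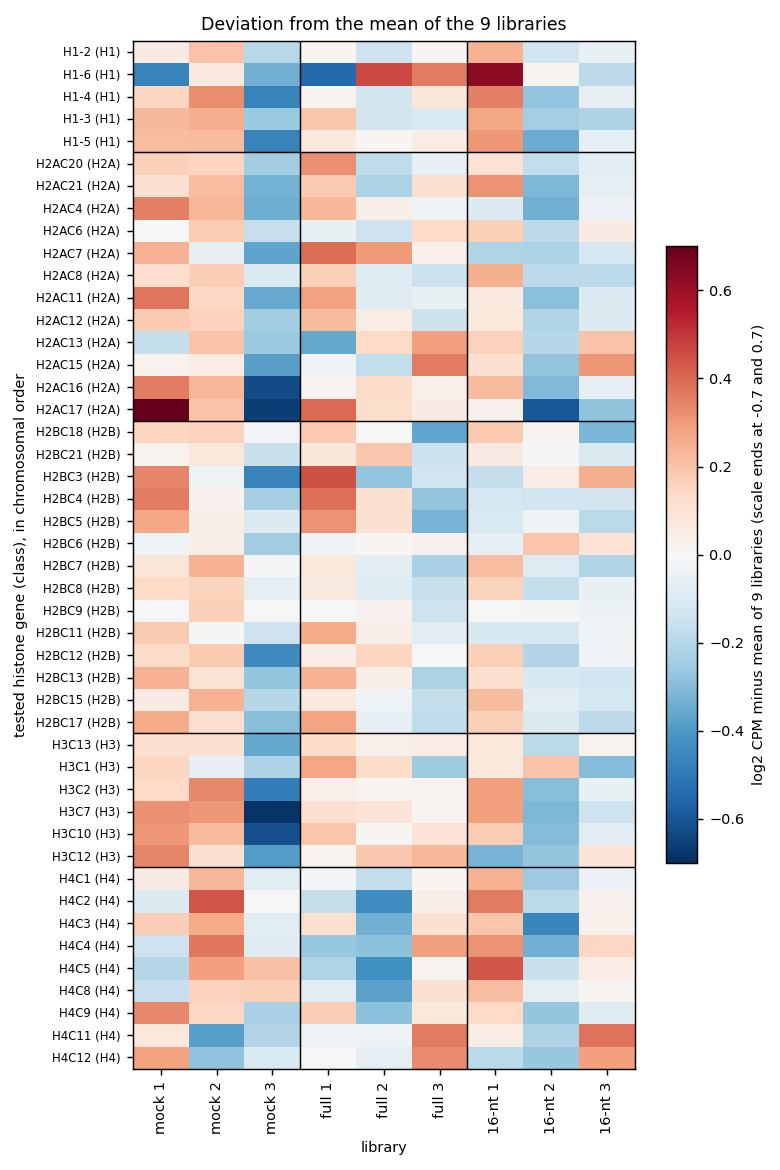
Log2 CPM of each tested histone gene minus its mean over the 9 libraries (colour, with the scale ending at -0.7 and 0.7), with genes in rows by class and libraries in columns by group. Mock replicate 3 and 16-nt replicate 2 are below the mean for 42 and 41 of 46 genes. Of the 9 H4 rows, 4 are lowest in full-length replicate 2, 3 in 16-nt replicate 2, 2 in mock replicate 2 and 0 in mock replicate 3.

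The spread within groups was wider for the histone genes than for most genes. The median SD of log2 CPM, pooled within groups, was 0.25 for the 46 members and 0.16 for all tested genes. Among genes of at least 10 CPM it was 0.25 for 39 members and 0.12 for 9018 genes. Without mock replicate 3 the median was 0.19 for the members and 0.15 for all tested genes. H2BC9 varied least of the members (0.078) and H2AC17 most (0.45).

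Other RNAs differed between the same libraries. A list of 28 RNAs that lack a poly(A) tail, led by RN7SL1 (the RNA scaffold of the particle that targets secreted proteins), had counts for 21 and summed to 74065, 72933 and 52791 CPM in mock, 63344, 52039 and 86718 CPM with the full-length gRNA, and 75800.2, 43282 and 78409 CPM with the 16-nt gRNA. It was lowest in 16-nt replicate 2, then in full-length replicate 2 and mock replicate 3. The histone genes were low in the first and the last of these, but in full-length replicate 2 their median deviation was -0.012, with H4 the lowest class (-0.29), beside -0.25 for this list. The list was highest in full-length replicate 3, where the median deviation of the histone genes was 0.020. The classes differed there, with 0.11 for H4 (0 of 9 genes below their mean) and -0.16 for H2B (13 of 14 below). For H1, H2A and H3 it was 0.051, 0.037 and 0.036. RN7SL2, RN7SK, RPPH1, RNU12, RNU2-2P, SCARNA2 and SCARNA13 were at 0. The K-562 markers summed to 2050.2, 1994 and 1528 CPM in mock, 1829.8, 1904 and 1608 CPM with the full-length gRNA, and 1867, 1577 and 1742 CPM with the 16-nt gRNA. The part of these differences in the histone values was not tested.

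The genes of S phase varied less. The 28 S phase genes (PCNA, the MCM helicase subunits, ribonucleotide reductase and others) summed to 3544 to 4058 CPM, and their median deviation in mock replicate 3 was -0.017, beside -0.24 for the histone genes. In these bulk libraries, fewer cells of a type and less RNA per cell cannot be told apart. Among the 28, 0 were called in any comparison by edgeR or DESeq2. At an unadjusted edgeR p under 0.05, 1 was lower with the full-length gRNA (GINS1, a replication helicase subunit, log2 fold change -0.19), 0 passed with the 16-nt gRNA and 0 between the gRNA groups, against 2.86%, 2.48% and 0.927% of all genes. POLA1, the catalytic subunit of DNA polymerase alpha, was at -0.16 with the full-length gRNA. With the 16-nt gRNA, RRM1 and RFC3 were at -0.16 and -0.14.

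Of 25 genes that act in histone gene transcription and 3′ end processing (NPAT, SLBP, the U7 snRNP proteins LSM10 and LSM11 and others), 0 were called in any comparison by edgeR or DESeq2, and their summed level stayed between 2053 and 2144 CPM. With the full-length gRNA, LSM10 was at a log2 fold change of 0.16 and ERI1, the exonuclease that trims the histone mRNA end, at -0.18. With the 16-nt gRNA, CCNE2, a cyclin that drives entry into S phase, was at -0.36 (unadjusted p = 0.0366, adjusted p = 0.978 by edgeR), the only one of the 25 under 0.05 unadjusted by edgeR in the 3 comparisons (against 2.48% of all genes in this one), and SYMPK was at 0.13. Of 22 histone chaperones and enzymes of new histones, 0 were called by edgeR or DESeq2, and 1 passed an unadjusted edgeR p of 0.05 with the full-length gRNA, against 2.86% of all genes, and 0 in the other comparisons. That gene, HAT1, which acetylates newly made H4, was at -0.23 with the full-length gRNA (unadjusted p = 0.0406 by edgeR) and -0.16 with the 16-nt gRNA, while TONSL was at 0.23 with the full-length and DAXX at 0.10 with the 16-nt gRNA.

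The other histone genes listed, mainly replication-independent variants whose mRNAs carry poly(A) tails, were steadier for several members. Some genes of this list may also be made mainly in S phase. Of 15, 10 passed the filter, 0 were called in any comparison by edgeR or DESeq2, and at an unadjusted edgeR p under 0.05 there were 0 against mock and 1 between the gRNA groups, against 0.927% of all genes. H2AZ2 averaged 95.4 ± 2.93 CPM (SD over 9 libraries), with a pooled SD of 0.048 on the log2 scale, and H2AZ1 219 ± 11.98 CPM, with 0.089. H3-3B was the highest, at 397 ± 57.6 CPM, and its pooled SD of 0.23 was close to that of the replication-dependent genes. The pooled SDs of H2AW (0.23) and H2BU1 (0.22) were close to it too. H3-3A and H2BU1 were at log2 fold changes of 0.13 and 0.19 with the full-length gRNA, and H1-10 and H2BU1 at 0.13 and -0.21 with the 16-nt gRNA. Among the tested RNAs that lack a poly(A) tail, 0 of 13 were called by edgeR or DESeq2, and 1 passed an unadjusted edgeR p of 0.05 with each gRNA against mock, where 2.86% and 2.48% of all genes did. That gene, RNU4ATAC, was at 1.01 ± 0.39 with the full-length gRNA (unadjusted p = 0.0202, adjusted p = 0.992 by edgeR) and 0.86 with the 16-nt gRNA, while RNU4-1 was at 0.28 with the full-length and SCARNA7 at 0.48 with the 16-nt gRNA.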

How the data were processed

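The authors deposited raw read counts per gene, with gene coordinates and annotated length, in 1 table for the 9 libraries, without normalization. The submitters' processing notes name STAR 2.7.6a, Subread 2.0.1 with featureCounts, Trim Galore 0.6.6 and the build GRCh38. Strand setting, multi-mapping rule and annotation release are not given in these sources. Libraries came from the NEBNext Ultra RNA kit, per the labels' protocols.

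Groups came from the sample titles. The members, lists and tests were chosen with earlier results of these data known. Of the K-562 markers, 1 is not reported here and enters no sum. CPM was computed from the deposited counts with TMM scaling, and log2 CPM with a prior count of 2. Tests were edgeR's quasi-likelihood F tests (edgeR 4.0.16, R 4.3.3), two-sided, with 1 fit of all 9 libraries, filterByExpr (minimum count 10), no replicate block and Benjamini-Hochberg adjustment over 15213 genes at 0.05. Named for level were the 2 highest members of each class and the 10 highest of all; for fold change, the members with the smallest p of each class (2 against mock, 1 between the gRNA groups) and the 2 smallest of each other list against mock. H4C3, H4C4 and further genes named for sequence, overlap, spread or separated groups were chosen after their values were seen. Alternatives were DESeq2 1.42.0, other scaling and filters, a replicate block, fits of 6 libraries and leaving out each library.

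Tested on simulated data with 200 changed genes, the test called 47.8% of genes changed 1.5-fold, 76.1% changed 2-fold and 95.5% changed 4-fold for the full-length gRNA against mock, with 14969 genes in that step. The changed genes were drawn from all tested genes, with noise independent between genes. The histone genes shift together and vary more (median biological coefficient of variation 0.13 against 0.10). These rates therefore do not say how well a histone change would be seen. Pairs of libraries within a group differed beyond sampling noise (chi-square per degree of freedom 12.0 to 31.0). For the pairing check, correlations of same-numbered libraries' deviations over all tested genes were 0.36, 0.20 and 0.57 between the gRNA groups. Different-numbered ones ran from -0.46 to 0.059, so the numbers went together there, by the data alone. Over the histone members the same-numbered values were -0.19, 0.45 and 0.44, and the different-numbered ones -0.68 to 0.36. The main tests did not pair the libraries, and the replicate block was run as an alternative. Against mock the same-numbered values over all tested genes were 0.20, 0.033 and 0.21 for the full-length gRNA. Each was above the different-numbered values there (-0.21 to 0.026), replicate 2 only narrowly. For the 16-nt gRNA the same-numbered values were 0.061, -0.19 and 0.20. Different-numbered values there ran from -0.32 to 0.29, so the numbers did not pair those libraries. Transcripts of GENCODE 29 and promoters of RefSeq (GRCh38.p14) were used for sequence.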

Additional observations from a re-analysis of the deposited data

How the results depend on the processing

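The count of histone genes called was 0 in each comparison under every alternative run. Over all genes, 1 was called in each comparison; without a filter on low counts, 6, 13 and 4 of 33525 genes were called for the full-length gRNA against mock, the 16-nt gRNA against mock and the gRNA groups, and the cause was not tested. Between the gRNA groups, 0 genes were called with only the 6 compared libraries and 0 to 1 when 1 library was left out (0 without full-length replicate 2). With the replicate block, 1 gene was called in each comparison, no histone gene was called, the medians of the 46 genes were 0.0025, -0.060 and -0.047, and no call changed. Leaving out 1 library moved the histone share to 0.786% to 0.876% in mock, 0.785% to 0.820% with the full-length gRNA and 0.751% to 0.828% with the 16-nt gRNA. Without the RNAs that lack a poly(A) tail in the total, the share with the full-length gRNA was 0.862%. The spread of the members was 0.19 without mock replicate 3, an alternative chosen after seeing the data. The median difference of the 46 with the full-length gRNA was below 0 by edgeR and above 0 by DESeq2.

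Some single genes that passed no test changed sign when 1 library was left out, with ranges of -0.011 to 0.26 for H2AC15, -0.046 to 0.17 for H3C13 and -0.076 to 0.27 for H3C12 (full-length gRNA), -0.32 to 0.078 for H3C10 (16-nt gRNA) and -0.057 to 0.14 for H1-2 (between the gRNA groups). These changes came without full-length replicate 3 for H2AC15 (also -0.011 without both gRNA replicate 3 libraries), without mock replicate 3 for H3C13 and H3C12, without mock replicate 1, mock replicate 2 or 16-nt replicate 2 for H3C10, and without 16-nt replicate 1 for H1-2. Of the other values of single genes under alternatives, 778 kept their direction and side of the threshold and 2, both of B2M between the gRNA groups (0.99 and 0.95), were no longer called. Depth limits the 20 untested genes and those near 1 CPM.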
